A study of Mus musculus with 5 samples.

Results

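Of the 43 bktRNAs listed for mouse Hepa1-6 cells, 7 carry the name of a repeat element as their gene label. They were picked by that label alone, as the RNAs whose label opens with the RepeatMasker prefix rmsk, and no abundance value enters this rule. The rule itself was set with earlier results of these data known. The other 36 RNAs, labelled with a gene or as intergenic, serve as the comparison. The 7 are bktRNA7, bktRNA11, bktRNA23, bktRNA26, bktRNA28, bktRNA36 and bktRNA38. All 5 libraries came from 1 group, Hepa1-6 hepatoma cells with stable overexpression of FLAG-15.5K kept under puromycin, and RNA was recovered with an anti-FLAG antibody. Because the cells overexpress the tagged protein and an input or an antibody control was not analysed here, no value is an enrichment. The table holds no marker gene, so the cell line's identity could not be checked against it. Whether each library had its own culture is not stated in the labels, and the SDs below may hold technical spread alone.

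The tagged protein, also known as Snu13, binds kink turns, sharp bends in RNA helices that form where box C and box D face each other, as in box C/D snoRNAs and U4 snRNA. In a bktRNA, a backward kink-turn RNA, box D stands upstream of box C, the reverse of the usual snoRNA order. Interspersed repeats are copies left by mobile elements. SINEs are short nonautonomous elements copied by the LINE machinery, L1 is the main LINE of mammals, and ERVL-MaLR elements are retrovirus-like elements with long terminal repeats. Rodent B1 elements are related to 7SL RNA, as primate Alu elements are, and B2 elements are derived from a tRNA gene. Many such copies lie within introns and are transcribed with the host gene.

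The labels name 3 SINEs, 2 LTR elements, 1 LINE and 1 simple repeat. bktRNA7 is labelled PB1D9, of the Alu family, bktRNA11 B3A, of the B2 family, and bktRNA28 RSINE1, of the B4 family. bktRNA26 (ORR1C2-int) and bktRNA38 (MTD) are both labelled ERVL-MaLR, bktRNA36 Lx8 of the L1 family, and bktRNA23 a simple repeat, (TGG)n. Repeat coordinates were not at hand. The part of each RNA inside the named element, and the strand of that element, were therefore not determined. In bktRNA23 the repeated tgg units stand only near the 3′ end. The 7 RNAs are printed below 5′ to 3′ in DNA letters because their shared box layout, and little else, ties them together. Capitals mark box D (CTGA) and the 6 nt core of box C (ATGATG or GTGATG).
bktRNA7: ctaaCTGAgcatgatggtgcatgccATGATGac
bktRNA11: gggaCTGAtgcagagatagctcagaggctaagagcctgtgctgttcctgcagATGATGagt
bktRNA23: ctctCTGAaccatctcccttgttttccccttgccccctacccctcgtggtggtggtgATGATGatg
bktRNA26: agaCTGAatgcatttttgcataATGATGtg
bktRNA28: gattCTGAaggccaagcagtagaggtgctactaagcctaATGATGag
bktRNA36: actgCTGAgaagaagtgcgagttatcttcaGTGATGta
bktRNA38: taccCTGAcagttctggATGATGaacta

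Each of the 7 has box D before box C, a property on which the list appears to have been selected, so this count describes the list. Box D starts after 4 nt in 6 of them and after 3 nt in bktRNA26. Box C is followed by 2 nt in bktRNA7, bktRNA26, bktRNA28 and bktRNA36, by 3 nt in bktRNA11 and bktRNA23, and by 5 nt in bktRNA38. The others are alike in this, with 4 nt before box D in 29 of 36 and 2 nt after box C in 27 of 36. What varies among the 7 is the stretch between the boxes, from 9 nt in bktRNA38 to 49 nt in bktRNA23. The first base of box C was A in 6 of the 7 (85.7%), bktRNA36 being the exception with G, against 12 of the 36 other RNAs (33.3%). The difference in this share was not tested. The complete 7 nt box C, RTGATGA with R for A or G, was present in 5 of the 7 (71.4%) and 22 of the 36 (61.1%), and bktRNA26 and bktRNA36 have T in its last place.

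Between the boxes the bases next to box D can pair with those next to box C, leaving 1 unpaired base before box C. In bktRNA7 gcatg faces catgc, a stem of 5 base pairs that closes a loop of 6 nt. bktRNA11 pairs tgcag with ctgca, also 5 base pairs, around a loop of 33 nt. In bktRNA26 atgca faces tgcat around only 4 nt, and in bktRNA36 gaaga faces tcttc around 11 nt. The stems of bktRNA23 (acca with tggt, loop 40 nt) and bktRNA28 (aggc with gcct, loop 22 nt) have 4 base pairs. bktRNA38 has the shortest, 3 base pairs of cag with ctg, closing a loop of 2 nt in an RNA of 28 nt. These pairs were read from the letters, and a loop of 2 nt is shorter than hairpin loops usually are.

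**Figure D1:**
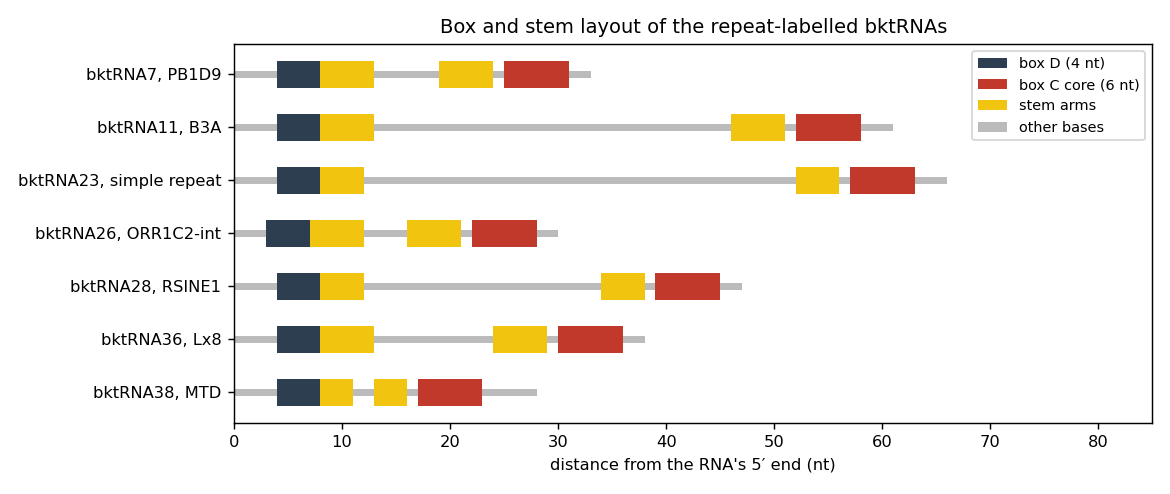
Box and stem layout of the 7 repeat-labelled bktRNAs, drawn to scale with the distance from the 5′ end in nt on the x axis. Box D lies after 3 or 4 nt in each RNA, and the loop between the stem arms runs from 2 nt in bktRNA38 to 40 nt in bktRNA23.

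In all 7 RNAs the deposited score equals the hydrogen bonds of this stem, at 2 per A-U pair and 3 per G-C pair, as it does in 34 of the 36 others. The sources used here do not say whether the listing used this stem or the distances to the ends. The presence of the stem, and likeness in these measures, may therefore describe the list. The scores were 13 for bktRNA7 and bktRNA11, 12 for bktRNA26 and bktRNA36, 11 for bktRNA28, 10 for bktRNA23 and 8 for bktRNA38. Their median was 12, and that of the other 36 RNAs was 11, with a range of 7 to 21. The median stem was 5 base pairs in the repeat-labelled RNAs and 4 in the others. This step between medians disappears when G-U pairs are allowed, which puts both at 5. The median loop was 11 nt against 11.5 nt, so on these measures the repeat-labelled RNAs lie within the range of the rest.

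The lowest-energy fold computed from each whole sequence, without protein, contained the complete stem in 3 of the 7 RNAs, bktRNA11, bktRNA26 and bktRNA28, and in 17 of the 36 others. In bktRNA7, bktRNA23, bktRNA36 and bktRNA38 that fold contained none of the stem's pairs, as in 16 of the 36 others. The folding program allows no hairpin loop under 3 nt, so the complete stem of bktRNA38, with a loop of 2 nt, could not appear. The same holds for any of the others with a loop this short. Folding energies ran from -4.3 kcal/mol in bktRNA36 to -20.7 kcal/mol in bktRNA11, with a median of -8.9 kcal/mol against -9.2 kcal/mol in the others. The energy model has no term for a kink turn or for bound protein.

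The 7 RNAs were short, like the list as a whole. Their lengths were 28 nt (bktRNA38), 30 nt (bktRNA26), 33 nt (bktRNA7), 38 nt (bktRNA36), 47 nt (bktRNA28), 61 nt (bktRNA11) and 66 nt (bktRNA23). The median of 38 nt compares with 38.5 nt in the other 36. GC content ran from 33.3% in bktRNA26 to 56.1% in bktRNA23, with a median of 46.8% against 48.4%. Neither difference was tested, since RNAs are not replicates.

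All 7 lie inside an intron of a protein-coding gene in GENCODE M21, on the strand of that gene, and the 7 host genes are distinct. Of the other 36 RNAs, 29 are classed as intronic, and all 29 also lie on the strand of an annotated gene, so this position is common to the list. The deposited labels of the 7 repeat-labelled RNAs end in an exon number of the repeat entry, while each of the 7 is classed as intronic. The sources used here do not say whether strand was a criterion for listing. Coordinates are on mm10, and introns are the shortest annotated ones that contain the RNA.

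bktRNA7 maps to the minus strand of chromosome 7, from 25730407 to 25730439, within intron 10 of Hnrnpul1, which encodes a protein related to hnRNP U. The intron is 6112 nt long, and the RNA begins 2576 nt after its 5′ splice site. bktRNA11 maps to the minus strand of chromosome 4, from 34995333 to 34995393, within intron 2 of Mob3b, a member of the MOB kinase activator family. That intron, of 97651 nt, is the longest of the 7. bktRNA28 maps to the minus strand of chromosome 2, from 139847100 to 139847146, within intron 13 of Tasp1, the gene for the protease taspase, 10555 nt after the 5′ splice site of a 23254 nt intron.

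bktRNA26 maps to the plus strand of chromosome 15, from 86470523 to 86470552, within intron 12 of Tbc1d22a, a gene of the TBC domain family. It also lies opposite A930001M01Rik, an antisense gene, where it falls in an exon of 1 annotated transcript and in an intron of the other. bktRNA38 maps to the minus strand of chromosome 2, from 132549318 to 132549345, within intron 7 of Gpcpd1, a glycerophosphocholine phosphodiesterase gene. bktRNA36 maps to the plus strand of chromosome 15, from 12153919 to 12153956, within intron 9 of Zfr, which encodes a zinc finger RNA-binding protein. It is the one nearest to a splice site, ending 489 nt before the 3′ end of an intron of 1448 nt. bktRNA23 maps to the plus strand of chromosome 17, from 46212242 to 46212307, within intron 5 of Xpo5, the gene for exportin-5, which carries microRNA precursors out of the nucleus.

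The median host intron was 6112 nt for the repeat-labelled RNAs and 14563 nt for the 29 other intronic RNAs. The median distance to the nearer splice site was 2576 nt against 1201 nt. Both ranges overlap widely, since host introns ran from 1448 to 97651 nt in the former and from 730 to 172760 nt in the latter.

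Abundance is given in RPM, read numbers that the authors scaled to a common library size. The low values of each library fall on multiples of a common step, and if 1 step is 1 read the libraries hold 17400000 reads (library 5) to 36300000 reads (library 2). Among the 21 values above 0 of the repeat-labelled RNAs, 18 are whole multiples within 0.05 steps. On that reading, with values rounded to whole steps, 9 of the 21 rest on 2 to 6 reads, and 4 of these on 2 reads. The 9 include bktRNA36 in library 2, which at 5.33 steps is not whole. A count of 0 reads leaves room for an expected count of up to 3 reads by counting error alone. This is 0.0826 RPM in library 2 and 0.173 RPM in library 5. No listed value above 0 is as low as 1 step, so a listed 0 need not be a count of 0.

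bktRNA7, the PB1D9 RNA of Hnrnpul1, was the most abundant of the 7. It had 1.46, 1.10, 1.89 and 1.56 RPM in libraries 1 to 4 and is listed at 0 in library 5. The 4 values above 0 lie within 1.71-fold of each other. In mean RPM it ranked 7 of 43, at 1.20, between bktRNA6 at 1.31 and bktRNA8 at 1.09. bktRNA8 in Ppl had a similar profile, with 1.32, 1.20, 1.61 and 1.31 RPM and a listed 0 in library 5, so the order of the pair differs between libraries.

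bktRNA11, the B3A RNA of Mob3b, was the steadiest. Its values were 0.701, 0.606, 0.725 and 0.683 RPM in libraries 1 to 4, within 1.20-fold of each other, and it too is listed at 0 in library 5. It ranked 11 with a mean of 0.543 RPM. In each of libraries 1 to 4 bktRNA7 was above bktRNA11, and bktRNA11 was above the other 5 repeat-labelled RNAs. Together bktRNA7 and bktRNA11 held 77.9% of the RPM summed over the 7 RNAs and 5 libraries.

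The remaining RNA with a SINE label, bktRNA28 in Tasp1, was lower and less even. It had 0.234, 0.110 and 0.0651 RPM in libraries 1, 2 and 4 and 0 in libraries 3 and 5. bktRNA23, the RNA in Xpo5 with the simple repeat label, had 0.331, 0.0551, 0.0946 and 0.390 RPM in libraries 1 to 4 and 0 in library 5. Its highest value was 7.09 times its lowest above 0. Both ranges are wide, so neither RNA has a stable place between the other low ones.

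The RNAs with an LTR or LINE label were each above 0 in 2 libraries. So were 17 of the 36 other RNAs, and no listed RNA was above 0 in fewer than 2. bktRNA26 had 0.0551 RPM in library 2, which is 2 reads by the step, and 0.662 RPM in library 3. Its mean of 0.143 RPM rests on library 3 and was 0.0138 RPM without it. bktRNA36 in Zfr had 0.117 and 0.147 RPM in libraries 1 and 2, and bktRNA38 in Gpcpd1 had 0.0584 and 0.165 RPM in the same libraries. The last value carries much of bktRNA38, whose mean of 0.0447 RPM was 0.0146 RPM without library 2, and the mean of bktRNA36, 0.0528 RPM, was 0.0292 RPM without it. bktRNA28 likewise fell from 0.0818 to 0.0438 RPM without library 1.

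**Figure D2:**
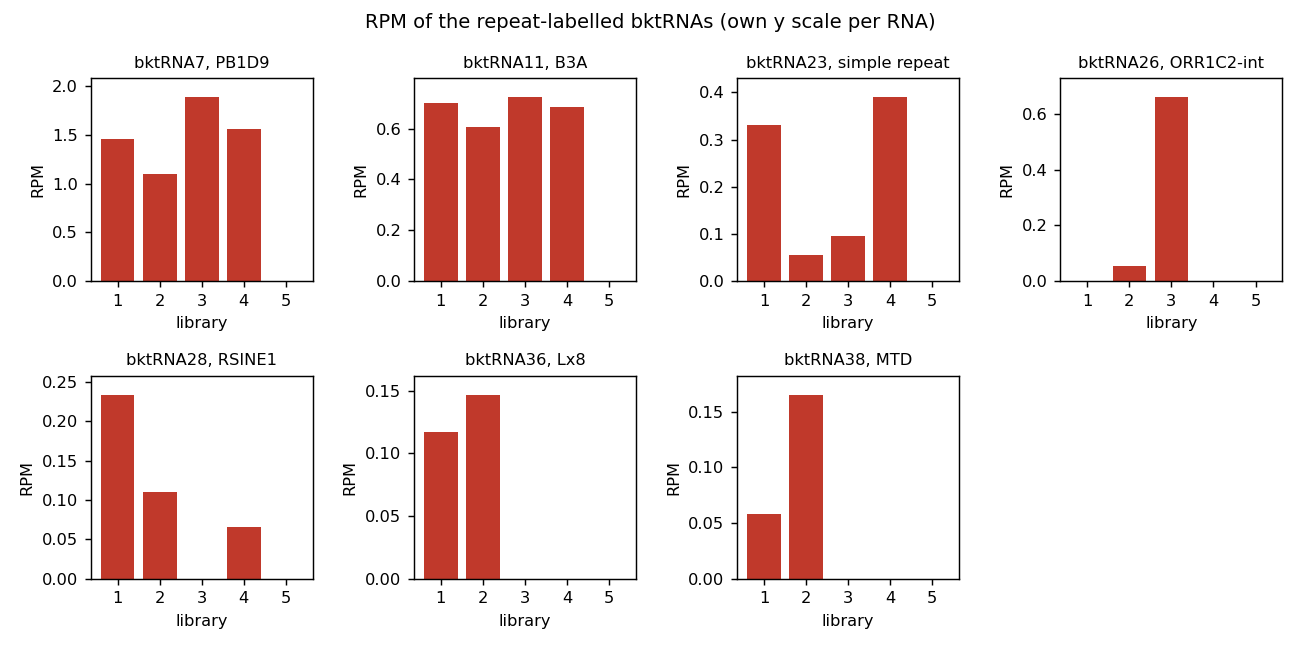
RPM of each repeat-labelled bktRNA in libraries 1 to 5, 1 panel per RNA with its own y axis starting at 0. bktRNA7 and bktRNA11 are even over libraries 1 to 4, bktRNA26 is almost all in library 3, and every panel is at 0 in library 5.

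Against the whole list, the repeat-labelled RNAs were a minor part by abundance. Their share of the RPM summed over all listed RNAs averaged 2.64% ± 1.57 (SD, n = 5), with 4.12% in library 1, 2.80% in library 2, 3.47% in library 3, 2.83% in library 4 and 0% in library 5. Most of the listed RPM is a single RNA, bktRNA1. With bktRNA1 left out of the total, the share was 8.53% ± 4.89 (SD, n = 5), and between 9.09% and 12.2% in libraries 1 to 4. The share by number is 7 of 43.

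The median of the mean RPM was 0.143 in the repeat-labelled RNAs and 0.227 in the other 36. On the scale log2(mean RPM + 1) the medians were 0.19 and 0.30, a difference of -0.10. Taken library by library, the difference of medians was 0.04, 0.08, -0.16, -0.04 and 0.00 in libraries 1 to 5. The value for library 5 is fixed, since both medians are 0 RPM there. Its sign differed among libraries 1 to 4. A pseudocount of 1 RPM flattens values this low, and with 0.1 RPM the difference of the medians of log2(mean RPM + pseudocount) was -0.42. The difference was not tested.

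**Figure D3:**
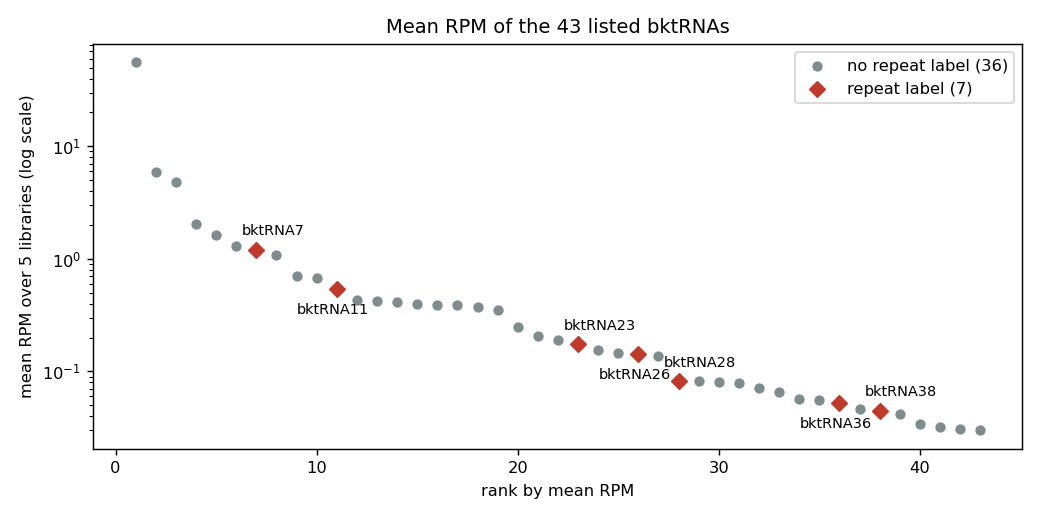
Mean RPM over 5 libraries (log scale) against rank for the 43 listed bktRNAs. The repeat-labelled RNAs, drawn as diamonds, hold ranks 7, 11, 23, 26, 28, 36 and 38 and are spread over the list below the 6 most abundant RNAs.

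The repeat-labelled RNAs were not above 0 in the same libraries. In library 1, 6 of the 7 repeat-labelled RNAs were above 0, where 69.8% of all 43 were. In library 2, all 7 were above 0 against 65.1% of the list. Libraries 3 and 4 each had 4 of the 7, against 72.1% and 58.1% of the list, and library 5 had 0 of 7 against 37.2%. Summed over libraries, 21 of 35 values were above 0 (60.0%), and 109 of 180 in the other RNAs (60.6%). The repeat-labelled share was the higher one in libraries 1 and 2 and the lower one in libraries 3, 4 and 5. Their difference was -0.556 percentage points with an SD over libraries of 33.1 (n = 5). It was 3.77 points without library 3 and 10.4 points without library 5.

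The zeros in library 5 were looked at further. Among the other RNAs, 16 of 36 were above 0 there and 20 at 0. Restricted to the 23 others whose mean in libraries 1 to 4 lay within the range of the repeat-labelled RNAs, 0.0559 to 1.50 RPM, 10 were above 0 in library 5. From their means in libraries 1 to 4 and the depth of library 5, 26.1 reads of bktRNA7 and 11.8 reads of bktRNA11 would be expected there. The expectation was 3.78 reads for bktRNA23 and 3.11 reads for bktRNA26, just over the 3 reads that a count of 0 allows, and lower for bktRNA28, bktRNA36 and bktRNA38. These 5 together would be expected at 10.8 reads. Of the 5 other RNAs with at least the mean of bktRNA7 in libraries 1 to 4, 2 were above 0 in library 5, and of the 9 others with at least that of bktRNA11, 5 were. The part that depth, library preparation or the listing rule has in these zeros was not tested.

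**Figure D4:**
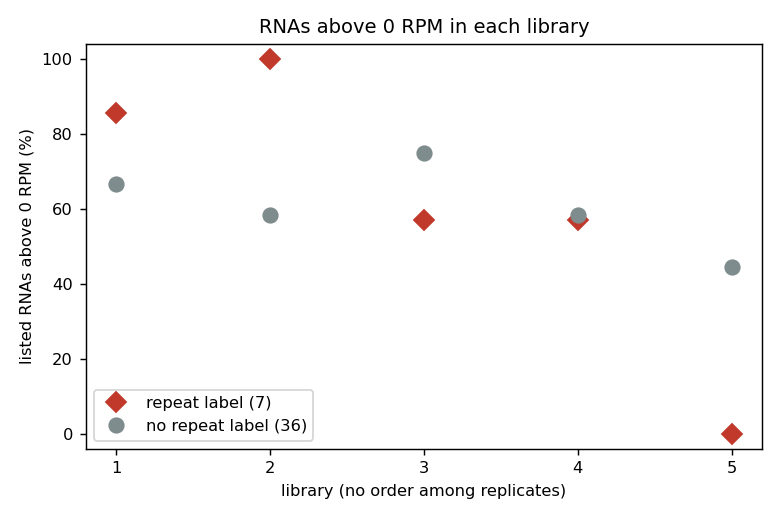
Percentage of listed RNAs above 0 RPM in each of the 5 libraries, for the 7 repeat-labelled RNAs (diamonds) and the 36 others (circles). The repeat-labelled share is 100% in library 2 and 0% in library 5, while the others lie between 44.4% and 75.0%.

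The RNAs shared little sequence with each other. Over the 21 pairs among the 7, the longest run of identical bases on the same strand was 8 nt, and each such run covers box C. bktRNA26 and bktRNA38, both labelled ERVL-MaLR, were no exception. Against the other 36 RNAs, the longest run was 20 nt, between bktRNA23 and bktRNA16, an RNA of chromosome 3 (127693440 to 127693510, minus strand) that the table labels with the gene Alpk1. The pair is printed with the shared run in capitals. It includes box C of both RNAs and the repeated tgg units before it.
bktRNA23: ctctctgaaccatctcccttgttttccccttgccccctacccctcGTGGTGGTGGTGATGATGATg
bktRNA16: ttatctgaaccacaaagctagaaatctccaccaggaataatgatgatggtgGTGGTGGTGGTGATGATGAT

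Thus an RNA with the same simple repeat at its 3′ end has no repeat label. bktRNA16 was above 0 in all 5 libraries, with 0.526, 0.110, 0.378, 0.651 and 0.288 RPM. bktRNA23 had 0.331, 0.0551, 0.0946, 0.390 and 0 RPM and was below bktRNA16 in each library. Whether reads can be told apart between the pair depends on the 5′ parts, which differ, and the sources used here do not say how reads with several matches were counted. In library 1 the value of bktRNA23 is 11.3 steps, in library 2 that of bktRNA36 is 5.33 and that of bktRNA7 is 40.1, the 3 values that are not whole.

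Sharing with other genes was counted over the transcripts of 55450 GENCODE M21 genes, leaving out the genes at the RNA's own position. Introns are not in these transcripts, so most genomic copies of a repeat are not counted. Only bktRNA23 of the 7 shared a run of 20 nt with any such gene, 10 in all, through its last 21 nt. bktRNA7, bktRNA11, bktRNA26, bktRNA28, bktRNA36 and bktRNA38 shared none. With runs of 16 nt, 6 of the 7 shared one, with 52 genes for bktRNA23, 19 for bktRNA11, 7 for bktRNA7, 3 each for bktRNA26 and bktRNA28, and 2 for bktRNA38, and bktRNA36 still with 0. The other RNAs gave like shares, 4 of 36 at 20 nt and 31 of 36 at 16 nt.

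The RNA that shared runs with the most genes carries no repeat label. bktRNA5, labelled with the gene Trrap, shared runs of 20 nt with 918 genes. bktRNA16 shared them with 64 genes, bktRNA42 in Usp45 with 27 and bktRNA15 in Swap70 with 2. bktRNA5, on chromosome 5 (144831497 to 144831552, plus strand), and bktRNA42, on chromosome 4 (21790975 to 21791034, plus strand), were chosen after these counts were seen. They are printed with the bases inside shared runs in capitals.
bktRNA5: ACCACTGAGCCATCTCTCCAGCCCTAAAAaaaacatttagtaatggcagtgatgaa
bktRNA42: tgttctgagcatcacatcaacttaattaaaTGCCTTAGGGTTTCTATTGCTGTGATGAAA

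In bktRNA5 the shared part, bases 1 to 29, holds box D, and in bktRNA42 bases 31 to 60 hold box C. The label therefore does not mark all listed RNAs with multicopy sequence, and in 6 of the 7 labelled ones such sequence was not found at 20 nt. Matches over the full length were also sought. Allowing mismatches at 20% of the positions and no gaps, bktRNA26 matched 3 genes on the same strand and 2 on the opposite one, with at least 5 mismatches. bktRNA38 matched 1 gene, and the other 5 matched none. The count of RNAs with such a match was thus 2 of 7, and it was 4 of 36 in the rest. At 25% of the positions bktRNA38 matched 21 genes on the same strand and 16 on the opposite one, and bktRNA26 matched 5 and 3. The unlabelled bktRNA6, of 28 nt like bktRNA38, matched 12 and 14. Whether such matches of short RNAs are copies of a repeat was not tested. That limit gave a match for 3 of the 7 RNAs and 15 of the 36 others. At 20%, none of the bktRNA26 matches kept both boxes, while the bktRNA38 match did.

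**Figure D5:**
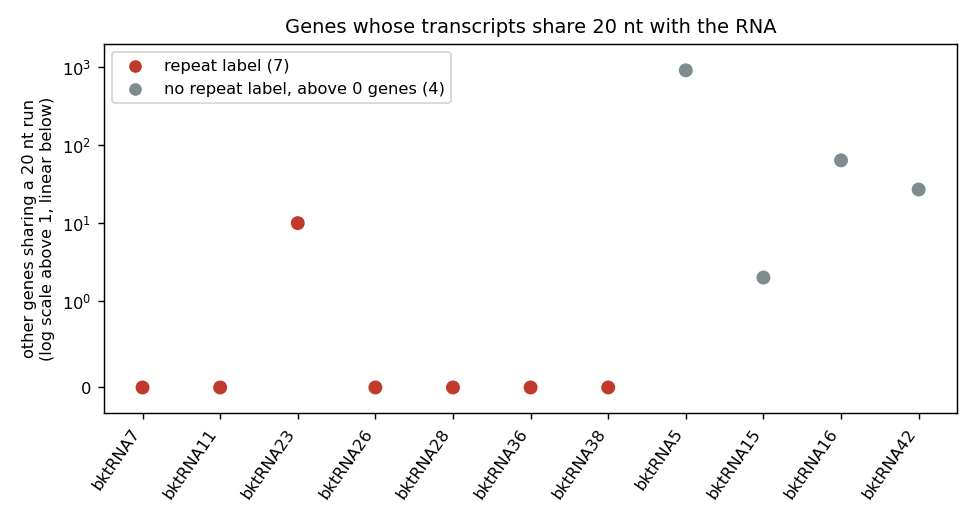
Number of other genes whose GENCODE M21 transcripts share a run of 20 nt with each RNA, on either strand (log scale above 1), for the 7 repeat-labelled RNAs and the 4 others with any such gene. bktRNA23 is the only labelled RNA above 0, with 10 genes, and unlabelled bktRNA5 has 918.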

How the data were processed

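Small RNA libraries, 5 in all, were sequenced from RNA recovered with an anti-FLAG antibody. Whether each had its own immunoprecipitation is not stated in the labels. The submitters' processing notes name cutadapt 2.8, STAR, bedtools and build mm10. The calling, labelling and counting of RNAs are not given in the labels or headers used here. The deposited library values are in RPM, per the file headers, and their sum is a deposited column. The deposited score has no definition in the file headers. Lengths and distances were used as deposited, with starts moved to 1-based.

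Members were found by the rmsk prefix, and the members and measures were chosen with earlier results of these data known. Which RNAs were named follows a rule: every repeat-labelled RNA, the most abundant RNA, and others next to one in rank or sharing the longest run with it. bktRNA5, bktRNA15 and bktRNA42 fall outside it and were named after their values were seen. No test between the repeat-labelled and other RNAs was made, since the libraries form 1 group and RNAs are not replicates. Levels were compared as log2(RPM + 1) with no filter on low values. Read depth was inferred from the RPM step, of which 80% of all values above 0 are whole multiples, so no count model was fitted. Folds used RNAfold 2.7.2 at 37 °C, and runs were searched in GENCODE M21 transcripts after a check on simulated sequences. Python 3.11.15, pandas 2.3.3, numpy 2.4.6, numba 0.67.0 and matplotlib 3.10.9 were used. Single libraries far from the others were sought with Dixon's criterion at 95%. Floors cover counting error only.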

Additional observations from a re-analysis of the deposited data

Results flagged for a closer look

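In 11 sets of 5 library values, 2 held a library far from the others. Chance gives about 1 in 20 such sets where values are normally distributed. These sets overlap and some hold listed zeros and low counts, so that rate need not apply to them. bktRNA11 lay between 0.606 and 0.725 RPM in libraries 1 to 4 and was at 0 in library 5. bktRNA26 had 0.662 RPM in library 3, against at most 0.0551 RPM in the others. The cause of either was not tested.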

How the results depend on the processing

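No paired analysis was possible because all libraries form 1 group. Leaving out each library in turn, the repeat share of the listed RPM ranged from 2.27% to 3.30%, and it was 8.53% without the most abundant RNA in the total, by construction. The difference in median log2(mean RPM + 1), repeat-labelled minus other, stayed negative, from -0.14 to -0.08. These subsets share most of their libraries, and taken library by library the sign differed. The difference was -0.42 with a pseudocount of 0.1 RPM. With means over RNAs, where the single most abundant RNA enters, it was -0.32. The difference in the share of values above 0 turned from -0.556 points to 3.77 without replicate 3 and 10.4 without replicate 5, with a range from -11.1 to 10.4, so it has no stable sign. Against intronic RNAs alone, the median length difference moved from -0.5 to -2 nt and that of GC content from -1.57 to -1.76 points. The median stem difference of 1 base pair became 0 with G-U pairs allowed. The count of RNAs sharing a run with other genes went from 1 to 6 with 16 nt, an alternative chosen after the data were seen. Shorter runs match more often by construction. Values of 2 to 6 reads limit bktRNA23, bktRNA26, bktRNA28, bktRNA36 and bktRNA38.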
